A study of Mus musculus with 12 samples.

Results

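The nuclear-encoded subunits of oxidative phosphorylation (OXPHOS) were examined in adipose tissue macrophages (ATMs) of miR-146a-/- and wild-type (WT) mice. The genes were chosen by symbol: every gene whose name begins with Nduf plus A, B, C, S or V and a number, the Sdh genes A to D, and names beginning with Uqcr, with Cox4 to Cox8 plus A, B or C, or with Atp5, leaving out symbols with -ps. The rule found 78 of the 15393 genes listed, 37 in complex I, 4 in complex II, 8 in complex III, 13 in complex IV and 16 in complex V. Sorted CD45+ CD11b+ F4/80+ cells from the stromal vascular fraction of visceral fat were sequenced from miR-146a-/- mice on high fat diet (HFD), WT mice on HFD, miR-146a-/- mice on normal chow diet (NCD) and WT mice on NCD, with 3 libraries in each of the 4 groups. All mice were on the C57BL/6 background and 20 weeks old, and HFD was fed for 14 weeks from 6 weeks of age. The miR-146a deletion was present in the whole animal, so any cell type could carry its effect into the ATMs. The cells of 3 mice were pooled in each library, and p-values therefore measure the spread between pools, not between single mice.

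Oxidative phosphorylation passes electrons from NADH through complex I, or from succinate through complex II, to ubiquinone, then through complex III and cytochrome c to complex IV, which reduces oxygen. The protons pumped on the way drive ATP synthase, complex V. Most subunits are encoded in the nucleus and imported, the rest come from the mitochondrial genome, and complex II is wholly nuclear-encoded. In macrophages, inflammatory activation is known to lower respiration in favour of glycolysis, while alternatively activated cells rely on the respiratory chain. miR-146a is a brake on NF-kB signalling whose known targets are the adaptor Traf6 and the kinase Irak1. The microRNA absent from the miR-146a-/- mice is shown as the sequence that defines the genotype, with its seed, bases 2 to 8, in capitals (RefSeq, GRCm38.p6, chr11:43374435-43374456, minus strand).
mmu-miR-146a-5p: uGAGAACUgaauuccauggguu
None of the listed genes (0) overlapped its hairpin (chr11:43374397-43374461), so the table does not check the deletion itself.

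Between 9998868 and 11559282 reads were counted to genes per library (median 10843129.5), and values are FPKM, reads scaled to gene length and to the counted reads of the library. Of 10 defining macrophage markers 9 were listed, none of them at 0 in any group, and their summed FPKM ranged from 11091 to 12793 over the 12 libraries. Markers of other cells were unevenly spread. The summed FPKM of 12 neutrophil markers was 505 to 19432 in miR-146a-/- HFD libraries and 51.5 to 69.4 in WT HFD libraries, where 3 of the 12 were at 0 throughout, and 574 to 1643 in miR-146a-/- NCD libraries and 110 to 148 in WT NCD libraries, where 2 were at 0. The highest sum belonged to miR-146a-/- HFD replicate 1, in which neutrophil markers stood far above those of the other 11 libraries. The 8 mast cell markers summed to 13.7 to 52.5 in HFD libraries and 133 to 356 in NCD libraries, none of them at 0 in all libraries of a group. With bulk RNA, fewer cells of a type and less RNA per cell cannot be told apart.

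The subunit genes were well expressed in every library. Their median of the mean FPKM over 12 libraries was 31.9, against 8.0 for the 12119 genes that were tested, those averaging 1 FPKM or more, and 74 of the 78 passed this filter. By complex the median was 27.1 FPKM for complex I, 39.5 for complex II, 54.6 for complex III, 62.2 for complex IV and 29.0 for complex V. Cox6b1, a subunit that bridges the complex IV dimer, was highest at 242 FPKM, followed by Atp5a1 (186 FPKM), the alpha subunit of the ATP synthase head, Ndufa4 (155 FPKM), listed among complex I genes by its name but now assigned to complex IV, Atp5b (131 FPKM), the catalytic beta subunit, Ndufa6 (130.2 FPKM), an accessory subunit of complex I, and Cox6a1 (110.3 FPKM). Those 6 were the only members above 100 FPKM. In complex I, core subunits had lower levels than Ndufa6, with 51.2 FPKM for Ndufs8, 33.5 for Ndufv2, 23.8 for Ndufv1, 23.2 for Ndufs1 and 16.4 for Ndufs7, all of which carry flavin or iron-sulfur clusters, and 7.30 for Ndufs3, which carries neither. Ndufs5 was lowest of those tested in complex I at 2.47 FPKM. In complex III, Uqcrh averaged 79.9 FPKM, the core protein Uqcrc1 77.3 and Uqcrq, the lowest, 19.9. FPKM depends on the gene length used. The length in the table was a median of 1.21 times that of the main annotated transcript and 2 times or more in 15 members, up to 7.26 times for Ndufb7, and per kilobase of the main transcript Atp5b (291), Atp5a1 (236) and Cox6b1 (198) were highest. The order of genes within a complex therefore holds for the table's lengths only, whereas the ratio of a gene's FPKM between libraries does not depend on them. The filter of 1 FPKM, and fold changes of FPKM + 1 at low levels, do depend on the length used.

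The 4 members that did not pass the filter were Ndufa4l2 (0.758 FPKM), a hypoxia-induced paralog of Ndufa4, Cox6b2 (0.725), the testis isoform of Cox6b1, Atp5g1 (0.941), one of the genes for the c ring of ATP synthase, and Atp5l (0.776), which encodes subunit g. Just above the filter was Cox6a2 (1.57 FPKM), the heart and muscle isoform of Cox6a1. The widely expressed isoforms Cox6b1 and Cox6a1 stood far above these tissue-restricted paralogs, and the same order held for Cox7a2 (87.8 FPKM) over the muscle form Cox7a1 (4.55 FPKM). Of the c ring genes, Atp5g3 had 29.8 FPKM. The 2 members related to Atp5 by name but not subunits of the enzyme, Atp5s and Atp5sl, had 2.49 and 5.43 FPKM, and Cox7a2l, a factor of respiratory supercomplexes, had 84.1. Cox7b (62.2 FPKM) and Cox8a (94.3 FPKM) were listed without a paralog.

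Sequence shared with other genes was measured too, since a read that matches several places cannot be assigned to 1 gene. Cut into windows of 50 bases, the main transcripts of 44 of the 78 members shared no window with another annotated gene, and in 2 members more than 50% of the windows were shared. These were Atp5l, with 68.5% of windows found in other genes, 12 of them pseudogenes, and Cox7c, with 53.0%. Next were Atp5h (47.9%), Uqcrb (43.2%), Ndufb4 (37.0%), Ndufs3 (35.8%) and Ndufs5 (31.1%). One Atp5l window is given as an example of such a stretch (GRCm38, chr9:44913416-44913465, minus strand). It occurs without a mismatch in 9 other genes, all of them pseudogenes.
Atp5l window: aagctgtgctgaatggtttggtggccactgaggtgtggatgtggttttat
Atp5l itself had 0.349, 0.339 and 0 FPKM in miR-146a-/- HFD libraries, 0.516, 1.37 and 1.96 in WT HFD libraries, 0.569, 0.714 and 0.530 in miR-146a-/- NCD libraries and 1.49, 0.561 and 0.912 in WT NCD libraries. A count of 0 reads in miR-146a-/- HFD replicate 3 allows up to 3 counts, or 0.565 FPKM, by counting error alone. Every miR-146a-/- HFD library lay below every library of the other groups, at levels of a few reads, while the other groups overlapped in part. How reads with several matches were treated was not tested, and values of Atp5l, Cox7c, Atp5h and Uqcrb are uncertain for that reason.

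**Figure D1:**
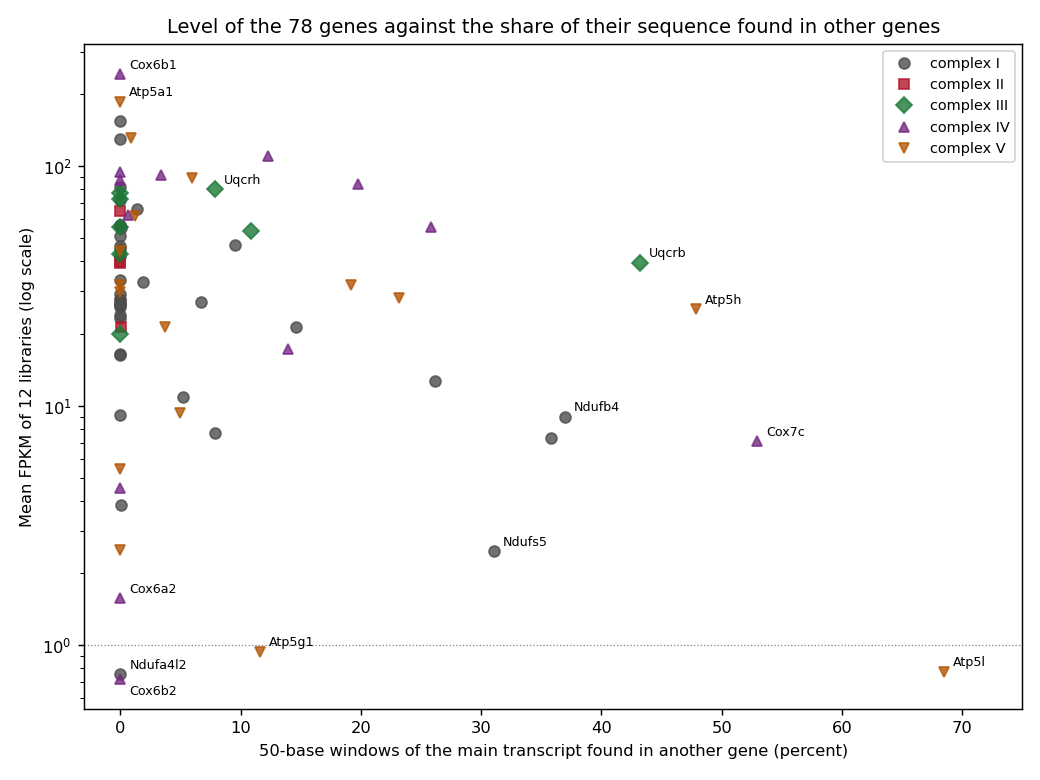
Mean FPKM over 12 libraries (log axis) of the 78 genes against the share of 50-base windows of their main transcript that occur in another annotated gene, in percent; marker shape and colour give the complex and the dotted line the filter of 1 FPKM. Atp5l combines the largest share, 68.5%, with 0.776 FPKM, while Ndufa4l2 and Cox6b2 lie below the line with no shared window.

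Summed, the 78 genes made up a nearly constant share of the RNA, 0.471 to 0.554% of counted reads. Their summed FPKM was 3841, 3256 and 3296 in the miR-146a-/- HFD libraries, 3352, 3718 and 3338 in the WT HFD libraries, 3588, 3541 and 3470 in the miR-146a-/- NCD libraries, and 3564, 3625 and 3636 in the WT NCD libraries. The ranges overlapped in each of the 4 comparisons of genotype or diet. The means were 3464 ± 327 in miR-146a-/- HFD, 3469 ± 216 in WT HFD, 3533 ± 59.3 in miR-146a-/- NCD and 3609 ± 39.0 in WT NCD (SD, n = 3 libraries each). By complex, with genes assigned by name, the NCD groups were apart in 3 of 5 sums. Of all single genes 18.3% were apart in this comparison, and the share for sums of other gene groups was not counted. A lower sum is not a change of every gene in it. Among single members apart on NCD, 11 were lower and 6 higher in miR-146a-/-, with Uqcrh and Uqcrfs1 lower and Uqcrq higher in complex III. Complex I summed to 1312 ± 118 FPKM in miR-146a-/- HFD, 1345 ± 76.7 in WT HFD, 1358 ± 15.7 in miR-146a-/- NCD and 1401 ± 28.4 in WT NCD, and complex III to 447 ± 47.9 FPKM, 423 ± 32.4, 434 ± 6.70 and 461 ± 12.1 in the same groups. Complex V summed to 689 ± 51.0, 686 ± 48.2, 689 ± 23.1 and 732 ± 11.6 FPKM. In these 3 complexes every miR-146a-/- NCD library lay below every WT NCD library, the ranges being 1340 to 1369 against 1373 to 1429 FPKM in complex I, 427 to 441 against 450 to 474 in complex III, and 669 to 714 against 721 to 744 in complex V. Ndufa4, counted in complex I by its name only, had 160 to 163 FPKM in miR-146a-/- NCD libraries and 157 to 170 in WT NCD libraries. Without Ndufa4 the complex I ranges on NCD overlap. The sums of complex II (144 to 170 FPKM in miR-146a-/- NCD and 154 to 168 in WT NCD) and of complex IV (855 to 929 in miR-146a-/- NCD and 836 to 879 in WT NCD) overlapped. On HFD the genotypes overlapped in every complex. The sums are a description and were not tested.

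**Figure D2:**
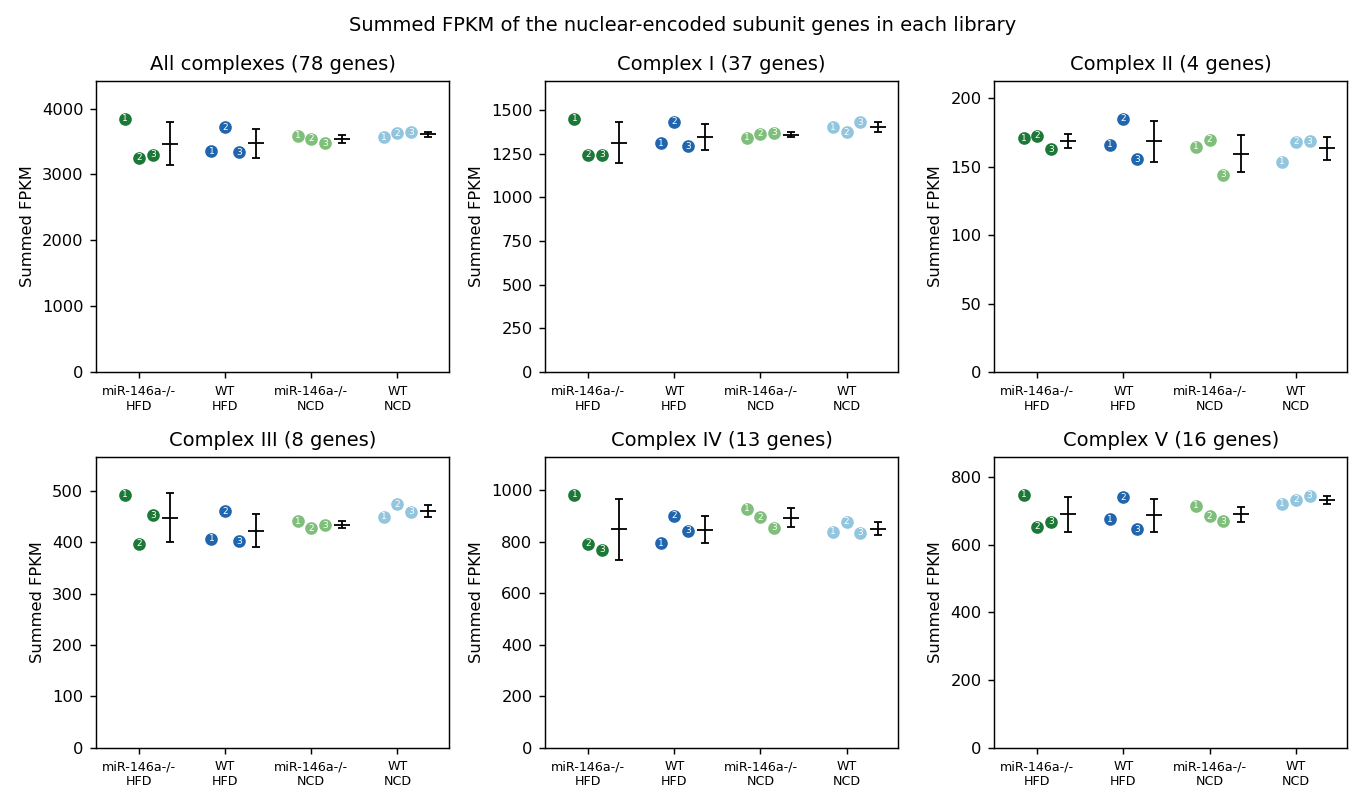
Summed FPKM of the 78 genes and of each complex in the 12 libraries; numbered points are libraries, the horizontal line with bars is the mean ± SD of 3 libraries, and each axis starts at 0. In the total of all complexes the HFD groups spread more widely than the NCD groups, with miR-146a-/- HFD replicate 1 (3841) and WT HFD replicate 2 (3718) as the highest totals.

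Single libraries stood apart. In miR-146a-/- HFD replicate 1, the library with the highest neutrophil marker sum, 24 of the 74 tested members (32.4%) had their highest value of all 12 libraries, against 21.7% of all genes tested, and 2 members (2.70%) had their lowest there, against 24.3% of all genes. In WT HFD replicate 2, 12 members (16.2%) were highest, against 10.4% of all genes. Conversely miR-146a-/- HFD replicate 3 held the lowest value of 18 members (24.3%), against 10.9% of all genes. Ndufv1, the flavin-binding subunit where NADH is oxidised, had 36.3, 19.3 and 21.0 FPKM in miR-146a-/- HFD libraries, and the accessory subunit Ndufa11 had 12.2, 6.34 and 4.95 FPKM. In both, replicate 1 was the high library. The median coefficient of variation of the members was 12.7% in miR-146a-/- HFD, 9.41% in WT HFD, 5.62% in miR-146a-/- NCD and 7.41% in WT NCD, close to that of genes with at least 5 FPKM (13.6, 8.50, 7.20 and 7.88% in the same groups). The part of the neutrophil RNA in these deviations was not tested.

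**Figure D3:**
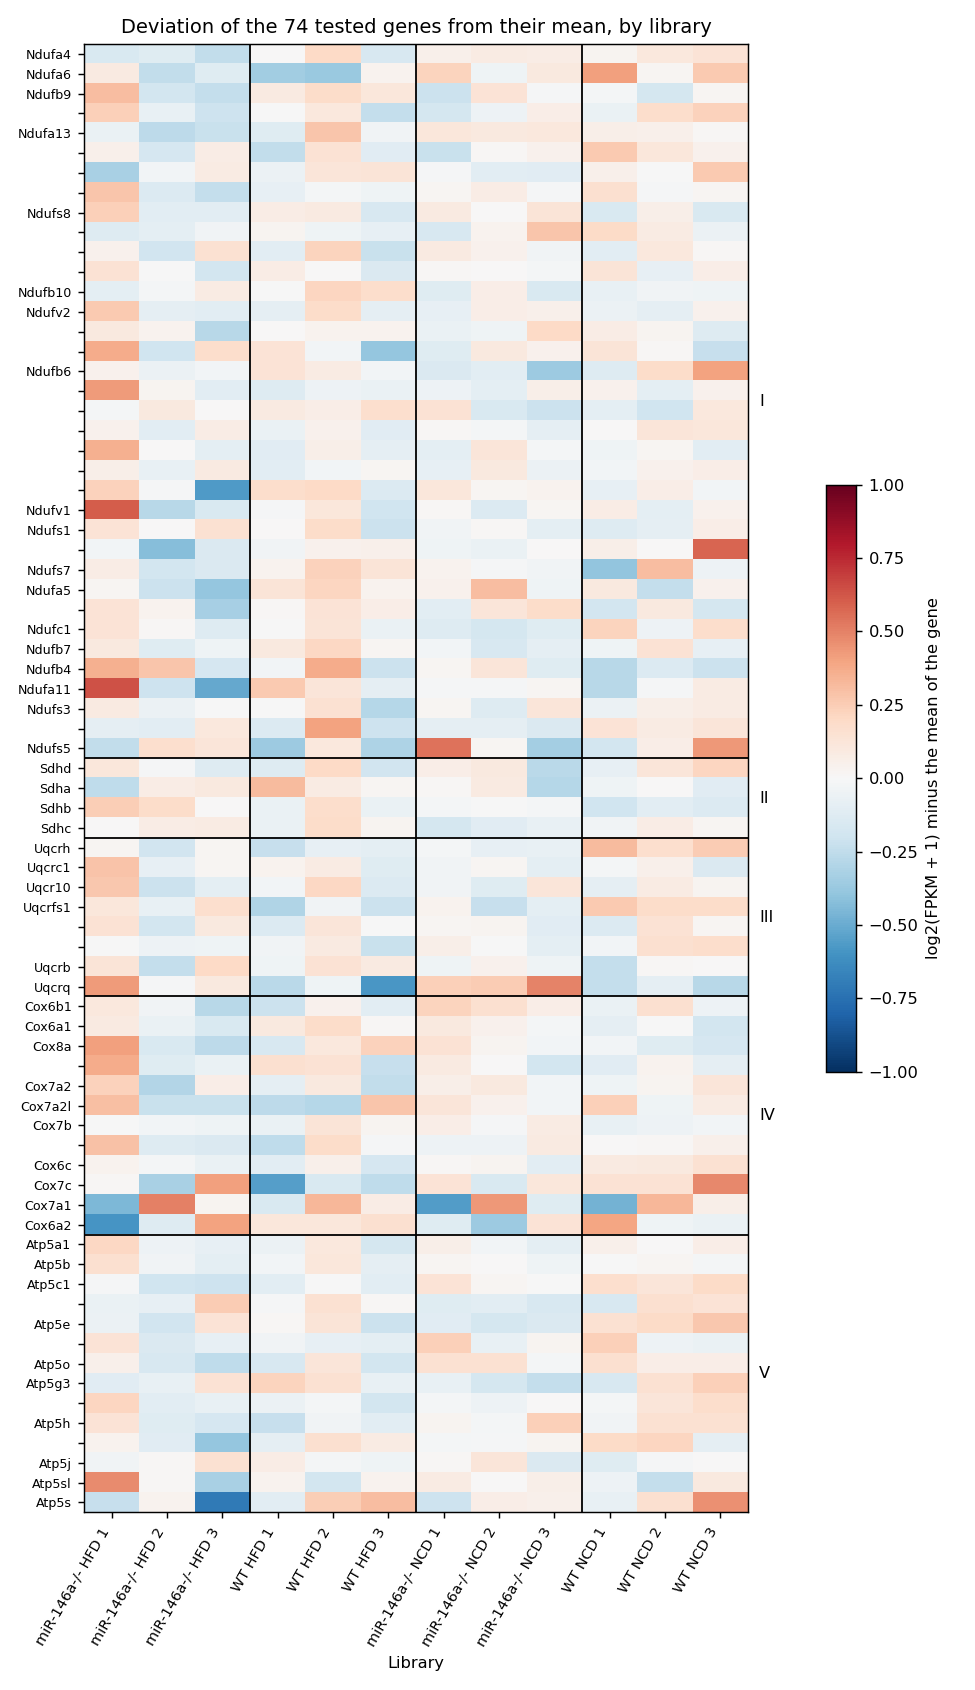
Deviation of log2(FPKM + 1) from the gene's own mean over 12 libraries for the 74 tested genes (vertical, by complex, with genes described in the text labelled) in each library (horizontal); red is above the mean and blue below. The column of miR-146a-/- HFD replicate 1 is red for most genes (54 of 74 above their mean) and so is that of WT HFD replicate 2 (57 of 74), whereas miR-146a-/- HFD replicate 2 is mostly blue (16 of 74).

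On HFD the subunit genes did not separate the genotypes. Changes were tested with limma on log2(FPKM + 1) in a fit of all 12 libraries, with p-values adjusted by Benjamini-Hochberg over the 12119 genes and a threshold of 0.05, and log2 fold changes are on that scale. For the genotype contrast on this diet, limma called 0 of 74 members, against 76 of all genes (0.627%). At an unadjusted p under 0.05, 5 members (6.76%) were found, 2 higher and 3 lower, against 17.5% of all genes, and limma voom on the recovered reads called 0. The median log2 fold change of the members was 0.01, with 41 above 0, against a median of -0.02 over all genes. The 95% interval lay within a fold of 1.5 either way for 66 of the 74 members (89.2%; 65.0% of all genes). The members had higher levels than all genes tested (median 31.9 against 8.0 FPKM). Here and in the other comparisons, the shares of intervals were not matched for level. Without miR-146a-/- HFD replicate 1 the median was -0.06, and still 0 members were called.

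The smallest p on HFD was that of Uqcrq, a small subunit of complex III next to cytochrome b (ENSMUSG00000044894, mm10 chr11:53427922-53430831, minus strand). It had 26.4, 19.3 and 20.9 FPKM in miR-146a-/- HFD libraries and 15.9, 18.9 and 12.6 FPKM in WT HFD libraries. The groups did not overlap, although miR-146a-/- replicate 2 and WT replicate 2 were 19.3 and 18.9 FPKM. The log2 fold change was 0.47 ± 0.15 (SE; 95% interval 0.14 to 0.80), with an adjusted p of 0.16. Uqcrfs1, the Rieske iron-sulfur protein that hands electrons to cytochrome c1, had 59.6, 52.3 and 61.8 FPKM in miR-146a-/- HFD libraries and 44.5, 53.8 and 47.4 FPKM in WT HFD libraries. WT replicate 2 exceeded miR-146a-/- replicate 2, so the groups overlapped, and the log2 fold change was 0.25 ± 0.10 (SE, adjusted p = 0.23). Ndufa5, an accessory subunit of the peripheral arm of complex I, had 16.3, 13.7 and 12.03 FPKM in miR-146a-/- HFD libraries, all under the 17.6, 18.8 and 16.5 FPKM of WT HFD libraries, with a log2 fold change of -0.32 ± 0.13 (SE, adjusted p = 0.24). The remaining members named by p-value were Ndufa13, also known as GRIM-19 (log2 fold change -0.22, adjusted p = 0.28), Atp5s, the coupling factor B (-0.45, 0.28), and Ndufa4 (-0.19, 0.33). Only Uqcrq and Ndufa5 had groups that did not overlap, 2 of 74 members (2.70%), against 20.3% of all genes.

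On NCD the genotypes were likewise not separated by a called subunit gene. Limma and limma voom each called 0 of 74 members between miR-146a-/- and WT ATMs, against 15 of all genes by limma (0.124%). At an unadjusted p under 0.05, 6 members (8.11%) were found by limma, 1 higher and 5 lower, against 6.68% of all genes. The median log2 fold change of the members was -0.02, with 28 above 0, against 0.02 over all genes. The 95% interval was within a fold of 1.5 for 67 members (90.5%; 73.5% of all genes). Groups did not overlap for 17 members (23.0%), 6 higher and 11 lower in miR-146a-/-, against 18.3% of all genes.

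Complex III again held the smallest p-values on NCD. Uqcrh, the acidic hinge protein that docks cytochrome c1 with cytochrome c (ENSMUSG00000063882, chr4:116066965-116075071, minus strand), had 78.3, 74.8 and 75.5 FPKM in miR-146a-/- NCD libraries and 99.3, 89.5 and 95.0 FPKM in WT NCD libraries. Every miR-146a-/- library lay under every WT library, and the log2 fold change was -0.31 ± 0.08 (SE, adjusted p = 0.44). Uqcrfs1 (ENSMUSG00000038462, chr13:30540308-30545362, minus strand) had 56.4, 46.8 and 51.4 FPKM in miR-146a-/- NCD libraries and 66.3, 62.7 and 62.5 FPKM in WT NCD libraries. Here too the groups did not overlap, with a log2 fold change of -0.31 (adjusted p = 0.55). Uqcrq stood the other way, with 23.2, 23.3 and 27.9 FPKM in miR-146a-/- NCD libraries and 16.3, 18.2 and 15.9 FPKM in WT NCD libraries, a log2 fold change of 0.53 ± 0.15 (SE, adjusted p = 0.45). Lower values in miR-146a-/- without an adjusted p under the threshold were also seen for Atp5e, the epsilon subunit of the ATP synthase stalk (-0.35, adjusted p = 0.48), Ndufb6 (-0.35, 0.62) and Ndufc1 (-0.26, 0.69), accessory subunits of the membrane arm of complex I.

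For Uqcrq all 6 miR-146a-/- libraries (19.3 to 27.9 FPKM) lay above all 6 WT libraries (12.6 to 18.9 FPKM). Genotypes did not overlap in 20.3% of all genes on HFD and 18.3% on NCD. The share of all genes apart over both diets was not counted. Averaged over both diets, a comparison chosen after seeing the data, the log2 fold change of Uqcrq was 0.50 ± 0.11 (SE; 95% interval 0.27 to 0.73, adjusted p = 0.095). It was the smallest p among the members, of which limma and limma voom each called 0 in this comparison, against 50 of all genes by limma (0.413%). At an unadjusted p under 0.05 limma found 5 members (6.76%), against 11.3% of all genes. No window of Uqcrq was shared with another gene. The gene lies on the chromosome of the deleted microRNA, 10.1 Mb from its hairpin, as do Uqcr10 (38.7 Mb), Atp5g1 (52.7 Mb) and Atp5h (72.0 Mb). Whether this position bears on its level was not tested.

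**Figure D4:**
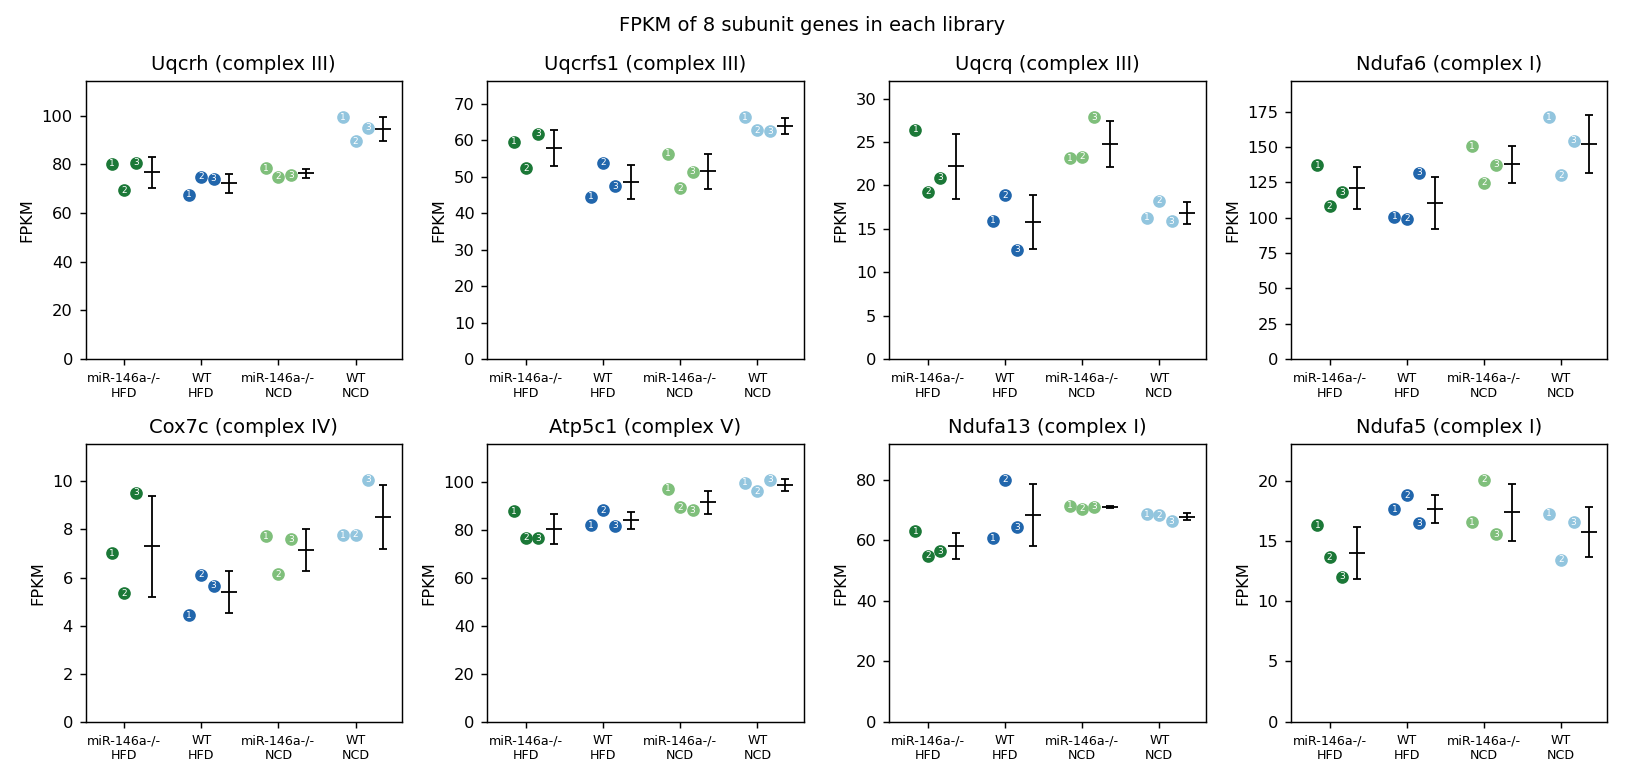
FPKM of 8 subunit genes in the 12 libraries; numbered points are libraries, the line with bars is the mean ± SD of 3 libraries, and axes start at 0. For Uqcrh and Uqcrfs1 the WT NCD libraries (89.5 to 99.3 and 62.5 to 66.3 FPKM) are the 3 highest, and for Uqcrq every miR-146a-/- library is above every WT library.

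The effect of diet in WT ATMs was the comparison in which a subunit gene passed the test. Uqcrh fell on HFD, to 67.5, 74.9 and 74.0 FPKM in WT HFD libraries, against 99.3, 89.5 and 95.0 FPKM in WT NCD libraries. The means were 72.1 ± 4.00 FPKM on HFD and 94.6 ± 4.90 FPKM on NCD (SD, n = 3 libraries each), no library overlapped, and the log2 fold change was -0.39 ± 0.08 (SE; 95% interval -0.57 to -0.20) with an adjusted p of 0.035. Uqcrh was the only member called, 1 of 74 (1.35%), against 361 of all genes (2.98%), of which 261 were lower on HFD (2.15%), so the share of the members was no larger than that of all genes. By limma voom 2 members were called, Uqcrh and Uqcrfs1 (2.70%), against 3.26% of all genes. The call was lost with quantile normalization (adjusted p = 0.067) and without any 1 library of WT HFD, miR-146a-/- NCD or WT NCD, where adjusted p was 0.056 to 0.135. It passed in 13 of 23 alternatives in all, with log2 fold changes between -0.43 and -0.32. Uqcrh shared 7.83% of its windows with the pseudogene Uqcrh-ps1.

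Another 5 members had an unadjusted p under 0.05 in WT, each with a lower value on HFD, so that 6 of 74 (8.11%) did, against 19.1% of all genes. Uqcrfs1 had 44.5, 53.8 and 47.4 FPKM in WT HFD libraries and 66.3, 62.7 and 62.5 FPKM in WT NCD libraries, without overlap, and a log2 fold change of -0.39 ± 0.10 (SE, adjusted p = 0.062). Ndufa6, an accessory subunit of the peripheral arm of complex I that carries an LYR motif, had 101, 99.3 and 132 FPKM in WT HFD libraries and 171, 130.1 and 154 FPKM in WT NCD libraries. WT HFD replicate 3 just exceeded WT NCD replicate 2, and the log2 fold change was -0.46 ± 0.14 (SE, adjusted p = 0.12). Cox7c, a small membrane subunit of complex IV, had 4.43, 6.13 and 5.66 FPKM in WT HFD libraries and 7.76, 7.78 and 10.1 FPKM in WT NCD libraries, without overlap (-0.57 ± 0.18, SE, adjusted p = 0.12), from 57 to 122 reads per library, and with the shared sequence given above. Atp5c1, the gamma subunit whose rotation drives ATP synthesis, had 81.9, 88.3 and 81.9 FPKM in WT HFD libraries, all below the 99.6, 96.1 and 101 FPKM of WT NCD libraries (-0.23 ± 0.08, SE, adjusted p = 0.14). Cox6c, another small subunit of complex IV, had a log2 fold change of -0.19 (adjusted p = 0.20).

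As a group the members moved little with diet in WT. Their median log2 fold change was -0.04, with 31 above 0 and 43 below, against 0.01 over all genes, and 67 of 74 intervals (90.5%; 65.0% of all genes) were within a fold of 1.5. Groups did not overlap for 14 members (18.9%), 5 higher and 9 lower on HFD, against 30.3% of all genes. Those higher were Ndufb9, Ndufb10, Sdha, Sdhb and Cox6a1. By complex the median was -0.04 for complex I, 0.10 for complex II, -0.06 for complex III, -0.01 for complex IV and -0.07 for complex V. Markers of other cells moved with the diet too. In WT, 6 of 7 tested mast cell markers and 3 of 6 dendritic cell markers were called lower on HFD. Of 9 macrophage markers 2 were called higher, Csf1r by 0.49 and Fcgr1 by 0.59 on the log2 scale. The share of all genes called in either direction was 2.98%. In each WT HFD library 6 of the 9 macrophage markers lay above their own mean, and in each WT NCD library 3 did. The part of these cell markers in the values of Uqcrh was not tested.

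In miR-146a-/- ATMs the diets did not differ in any called subunit gene. Limma and limma voom each called 0 of 74 members, against 92 of all genes by limma (0.759%), and 5 members (6.76%) had an unadjusted p under 0.05 by limma, 1 higher and 4 lower on HFD, against 13.4% of all genes. Their median log2 fold change was 0.01, with 41 above 0, against -0.03 over all genes, and 70 of 74 intervals (94.6%; 68.1% of all genes) were within a fold of 1.5. Uqcrh, called in WT, had 80.3, 69.2 and 80.5 FPKM in miR-146a-/- HFD libraries and 78.3, 74.8 and 75.5 FPKM in miR-146a-/- NCD libraries, with a log2 fold change of 0.01 (95% interval -0.18 to 0.19). The smallest p was that of Ndufa13, with 62.9, 54.8 and 56.4 FPKM in miR-146a-/- HFD libraries, all below the 71.3, 70.4 and 71.0 FPKM of miR-146a-/- NCD libraries (-0.29, adjusted p = 0.24). Atp5c1 had 87.8, 76.9 and 76.6 FPKM on HFD, each just below the 97.2, 89.5 and 88.2 FPKM on NCD (-0.19, adjusted p = 0.34), the direction it had in WT. Ndufa4 (-0.24, adjusted p = 0.30), Ndufa5 (-0.30, 0.36) and Atp5o, the stalk protein OSCP (-0.22, 0.41), also had lower values without passing the test, and Sdhc, a membrane anchor of complex II, was the 1 member with a positive log2 fold change among those at an unadjusted p under 0.05 (0.17, 0.35). Groups did not overlap for 7 members (9.46%), against 17.5% of all genes.

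**Figure D5:**
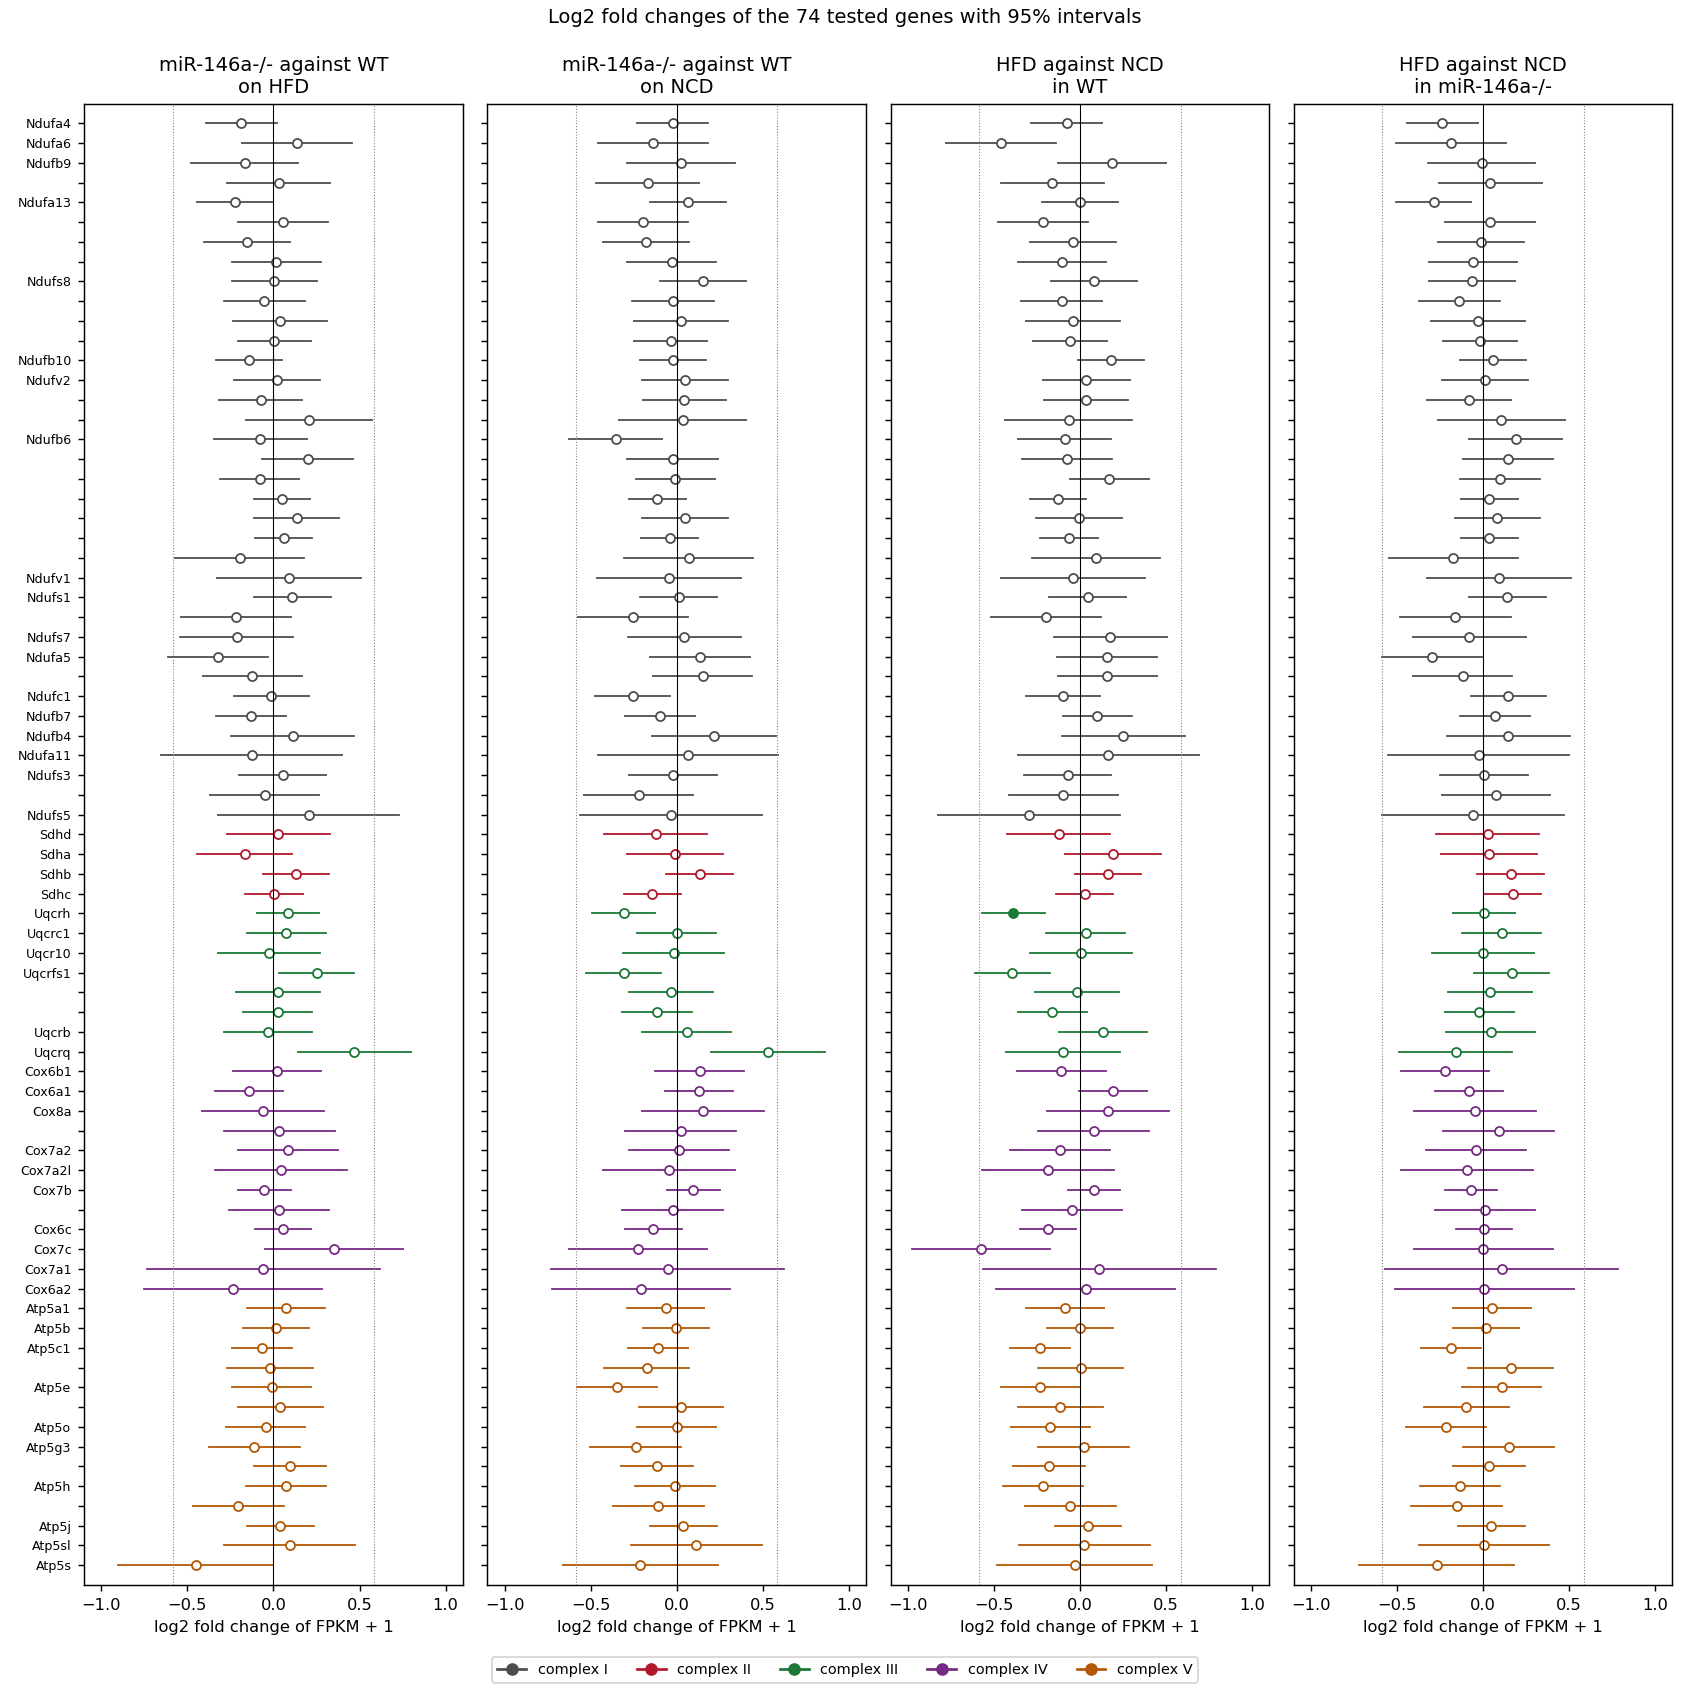
Log2 fold changes of FPKM + 1 (horizontal) with 95% intervals for the 74 tested genes (vertical, coloured by complex, with genes described in the text labelled) in the 4 comparisons; filled points have an adjusted p under 0.05 and dotted lines mark a fold of 1.5. Uqcrh in HFD against NCD in WT is the only filled point, at -0.39.

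Whether the genotype effect differed between diets was tested as an interaction, which equals the difference of the diet effects between genotypes. Limma and limma voom each called 0 of 74 members, and limma called 0 of the 12119 genes (0.0%), with 5 members (6.76%) at an unadjusted p under 0.05 and 12.2% of all genes. Uqcrfs1 had the smallest p, with a log2 difference of 0.56 ± 0.14 (SE, adjusted p = 0.21), and Uqcrh followed (0.39 ± 0.12, SE, adjusted p = 0.24). In both, the 3 WT NCD libraries were the highest of all 12. The share of all genes with this order was not counted. The other 9 libraries ranged from 67.5 to 80.5 FPKM for Uqcrh and from 44.5 to 61.8 FPKM for Uqcrfs1. The diet effect on Uqcrh, past the threshold in WT only, is thus not shown to differ between genotypes. Cox7c (0.58, adjusted p = 0.40), Atp5e (0.34, 0.40), Ndufa5 (-0.45, 0.38) and Cox6a1 (-0.27, 0.42) were the other members with the smallest p-values. These comparisons share the libraries of each group, WT NCD among them, and are not independent of one another. Averaged over both genotypes, again chosen after seeing the data, HFD against NCD gave 0 called members by limma and by limma voom, against 551 of all genes by limma (4.55%). At an unadjusted p under 0.05 limma found 8 members (10.8%), against 19.0% of all genes. Atp5c1 was closest (-0.21 ± 0.06, SE, adjusted p = 0.061), then Uqcrh (-0.19, 0.10) and Ndufa6 (-0.32, 0.11).

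Complex II, whose enzyme also oxidises succinate in the TCA cycle, had 4 of 4 members above 0 on HFD in miR-146a-/- and 3 of 4 in WT, with 0 called and 1, Sdhc, at an unadjusted p under 0.05. Sdhb, the iron-sulfur subunit, had 46.7, 44.7 and 39.2 FPKM in miR-146a-/- HFD libraries, 37.4, 44.5 and 37.3 in WT HFD libraries, 38.6, 39.1 and 38.6 in miR-146a-/- NCD libraries and 33.9, 36.3 and 35.4 in WT NCD libraries. HFD libraries lay above NCD libraries of their own genotype in every case, in miR-146a-/- by a narrow margin (39.2 against 39.1 FPKM). The diets did not overlap in 30.3% of all genes in WT and 17.5% in miR-146a-/-, and the share apart in both was not counted. The log2 fold change of Sdhb over both genotypes was 0.16 (adjusted p = 0.19). Sdha, the flavoprotein, averaged 39.0 FPKM in miR-146a-/- HFD, 43.8 in WT HFD, 38.1 in miR-146a-/- NCD and 38.1 in WT NCD. Sdhc averaged 22.1, 22.1, 19.5 and 21.6 FPKM in the same groups, and Sdhd, the other membrane anchor, 64.0, 63.0, 63.1 and 68.5.

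Other genes of the mitochondrion gave few calls. Of 13 mitochondrially encoded subunits 7 were listed, and in WT all 7 had a negative log2 fold change on HFD (median -0.19, against 0.01 over all genes), with 0 called and 1 at an unadjusted p under 0.05. Their median log2 deviation was -0.25 and -0.27 in WT HFD replicates 1 and 2 but 0.10 in replicate 3. Their summed FPKM overlapped, with 3292 to 4142 in WT HFD and 3909 to 4301 in WT NCD libraries. Between miR-146a-/- and WT their median log2 fold change was 0.11 on HFD and -0.08 on NCD. Assembly factors of the complexes (42 tested), TCA cycle enzymes (13), coenzyme Q synthesis (10), regulators of mitochondrial biogenesis (13), mitochondrial membrane proteins outside the chain (19) and mitochondrial ribosomal proteins (74) had 0 called in each of the 4 comparisons and in the interaction. The median log2 deviation of the coenzyme Q genes from their own means was -0.03, -0.07 and -0.05 in miR-146a-/- HFD libraries. In WT HFD libraries it was 0.09, 0.11 and -0.06, in miR-146a-/- NCD libraries 0.02, -0.005 and 0.11, and in WT NCD libraries -0.06, -0.03 and -0.09. Low values were thus not particular to miR-146a-/- HFD. OXPHOS genes that the symbol rule does not reach (6 tested in 2 lists) also had 0 called. For HFD against NCD in WT the median of the 3 names of complexes I to IV was -0.25, with Cycs (-0.47, adjusted p = 0.078) and Cox4i1 (-0.25, adjusted p = 0.19) at an unadjusted p under 0.05. The median of the 3 names of complex V was -0.23 for miR-146a-/- against WT on HFD and -0.34 for HFD against NCD in miR-146a-/-, with Atpif1, the inhibitor of ATP synthase, at -0.23 (adjusted p = 0.24) and -0.34 (adjusted p = 0.14). Among 3 tested suppressors and variant subunits of complex IV, 0 were called, and AA467197, also known as Nmes1, whose product replaces Ndufa4 in activated cells, had 26.5 FPKM in miR-146a-/- HFD replicate 1 and at most 5.48 FPKM in the other libraries. Glycolysis, with 18 genes tested, had 2 called lower on HFD in WT, Hk2 (-0.55) and Pfkp (-0.50), against 2.98% of all genes called in either direction. In the other comparisons of 2 groups 0 were called. The summed FPKM of these 18 genes was highest, at 879, in miR-146a-/- HFD replicate 1, against a median of 499 over the 12 libraries.

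Of 79 tested cytosolic ribosomal proteins, 2 were called for HFD against NCD in WT, both lower (2.53%, against 2.98% of all genes). The log2 fold change was below 0 for 70 of the 79 (median -0.26), against 5934 of the 12119 genes (median 0.01), and 34 (43.0%) had an unadjusted p under 0.05, against 19.1% of all genes. On NCD 60 of 79 were below 0 in miR-146a-/- against WT (median -0.12), with 1 called, Rps3a1, which was lower in miR-146a-/- on HFD too. Uqcrh and Uqcrfs1 had their negative values in the same 2 comparisons, which share the WT NCD libraries. Of the mitochondrial ribosomal proteins, 42 of 74 were above 0 in the diet comparison in WT (median 0.02). Of 15 genes induced by tissue dissociation or heat shock, 1 was called higher and 3 were called lower on HFD in WT. The share of all genes called in either direction was 2.98%. Those called lower were Hspa1a, Hspa1b and Hspe1. The part of these groups in the values of the 2 complex III genes was not tested.

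Promoter sequences from RefSeq (GRCm38.p6, 250 bases before to 50 after the gene's start) were matched for 66 of the 78 members by symbol or synonym and searched on both strands for motifs of factors known to act on OXPHOS genes. The NRF-1 core CGCATGCG was found in 8 members (12.1%) and in 4.47% of 8877 tested genes with a promoter, and AAGATGGCG, a YY1 motif, in 8 members (12.1%) and 3.82% of genes. The ETS motif CCGGAAG was found in 16 members (24.2%) and 21.4% of genes, and TCAAGGTCA, the ERR motif, in 2 members (3.03%) and 0.293% of genes. A gene with several annotated starts counts once, and none of the 4 strings contains another. The first 2 promoters belong to the complex III genes with the smallest diet p in WT, and that of Atp5j, coupling factor 6 of ATP synthase, is given because it holds 3 of the 4 motifs. For Atp5j the start of the 2 annotated that holds them is shown. Capitals mark the matches, and Uqcrh holds the ETS motif, Uqcrfs1 none, and Atp5j the NRF-1, YY1 and ETS motifs.
Uqcrh (chr4:116075021-116075320, minus strand): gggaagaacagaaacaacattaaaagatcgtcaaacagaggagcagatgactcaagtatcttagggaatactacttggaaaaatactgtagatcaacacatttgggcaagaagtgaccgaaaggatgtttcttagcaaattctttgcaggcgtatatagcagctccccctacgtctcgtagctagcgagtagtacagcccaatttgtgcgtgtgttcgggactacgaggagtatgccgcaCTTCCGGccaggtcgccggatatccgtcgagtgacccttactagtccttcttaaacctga
Uqcrfs1 (chr13:30545267-30545566, minus strand): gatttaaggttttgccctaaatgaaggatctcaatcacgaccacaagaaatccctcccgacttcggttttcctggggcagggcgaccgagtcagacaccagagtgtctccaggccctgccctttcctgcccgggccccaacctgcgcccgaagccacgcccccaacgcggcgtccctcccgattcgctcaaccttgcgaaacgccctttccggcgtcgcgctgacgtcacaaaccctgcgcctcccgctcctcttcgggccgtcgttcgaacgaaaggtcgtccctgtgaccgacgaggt
Atp5j (chr16:84834927-84835226, minus strand): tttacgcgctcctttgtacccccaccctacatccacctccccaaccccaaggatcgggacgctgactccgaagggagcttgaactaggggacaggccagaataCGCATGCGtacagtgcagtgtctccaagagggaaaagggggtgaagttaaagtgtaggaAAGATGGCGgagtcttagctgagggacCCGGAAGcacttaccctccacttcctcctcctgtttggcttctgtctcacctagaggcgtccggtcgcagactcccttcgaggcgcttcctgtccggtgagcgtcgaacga
Atp5j, with 3 motifs, had log2 fold changes of 0.04 in miR-146a-/- against WT on HFD and 0.05 in HFD against NCD in WT, and Uqcrh -0.39 in the diet comparison.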

How the data were processed

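The deposited table gives FPKM, which the authors divided by gene length and by reads counted to genes. Multiplying back gave whole reads for 184716 of 184716 values, within 1e-06 reads. Libraries were stranded, depleted of ribosomal RNA and read from 1 end. Processing notes name Novoalign, DESeq2 and mm10, without versions or roles.

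The OXPHOS genes and all lists were chosen with earlier results of these data known. Genes averaging 1 FPKM or more were tested as log2(FPKM + 1) with limma 3.58.1 (R 4.3.3, statmod 1.5.0; trend and robust eBayes), with a mean for each of 4 groups in a fit of all 12 libraries, and p-values adjusted by Benjamini-Hochberg over 12119 genes. The study states no test across genes for this table. Members were named if called or among the 6 smallest p-values of a comparison, for high or low levels, as complex II genes, as paralogs or as names that are not subunits. Further genes were named from the other lists, up to 3 called in each, and genes named outside this rule were chosen after their values were seen.

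As alternatives, the pseudocount was set to 0.1, the filter was dropped or raised to 5 FPKM, values were scaled by median ratios or quantiles or corrected for each library's trend on gene length, the fit was limited to the groups compared, given array weights, run without trend or robust estimate, or given a replicate block, limma voom was run on the recovered reads, and each library was left out in turn. Windows and motifs were searched with Python 3.11.15. Code was tested on simulated data. Counting intervals cover counting error only. The level of 1 member, counted in the totals, is not reported here.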

Additional observations from a re-analysis of the deposited data

How the results depend on the processing

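Of the members named, 918 values kept their direction and side of the threshold under an alternative, 18 newly passed, 10 no longer passed and 0 reversed. With array quality weights 5 members (6.76%, against 13.1% of all genes) were called for HFD against NCD in WT, 2 (2.70%, against 5.83%) for HFD against NCD in miR-146a-/-, 1 (Uqcrq; 1.35%, against 2.26%) for miR-146a-/- against WT over both diets and 6 (8.11%, against 16.3%) for HFD against NCD over both genotypes, and the median log2 fold change of the members was -0.068 for miR-146a-/- against WT on HFD and -0.079 for HFD against NCD in miR-146a-/-. For HFD against NCD in WT, 0 members were called with quantile normalization, 2 (2.70%) in a fit of only the groups compared, against 6.23% of all genes, and 2 with limma voom, against 3.26%. Leaving out each library in turn called 0 to 3 members for HFD against NCD in WT and 0 to 3 over both genotypes, the 3 (4.05%) in both cases without miR-146a-/- HFD replicate 1, against 9.78 and 9.79% of all genes in those fits, and 0 in every other comparison. It moved the median of the members between -0.06 and 0.06 for miR-146a-/- against WT on HFD, -0.03 and -0.01 on NCD and -0.05 and 0.01 over both diets, between -0.09 and 0.02 for HFD against NCD in WT, -0.05 and 0.06 in miR-146a-/- and -0.05 and 0.01 over both genotypes, and between -0.04 and 0.09 for the interaction. The cause of these shifts was not tested. With the replicate number as a block, 1 member was called for HFD against NCD in WT and 0 in the other comparisons. Same-numbered libraries correlated between -0.05 and 0.12 in their deviations (median 0.03), over 0.1 in 2 of 18 pairs. Differently numbered libraries of different groups correlated between -0.15 and 0.14 (median -0.007), over 0.1 in 2 of 36 pairs. The labels do not say what the numbers stand for, and these values do not settle whether they pair the libraries. Pools of 3 mice in 3 libraries a group limit what could be found: on HFD 8 of 74 members had intervals reaching past a fold of 1.5, and members with shared sequence or a few reads are uncertain.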

Other observations

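Cox7a1, the heart and muscle isoform of a complex IV subunit, repeated 1 order of replicates in every group, a pattern singled out after its values were seen. It had 2.94, 6.65 and 4.49 FPKM in miR-146a-/- HFD replicates 1, 2 and 3, 3.86, 5.78 and 4.67 in WT HFD, 2.66, 6.26 and 3.97 in miR-146a-/- NCD and 2.88, 5.78 and 4.61 in WT NCD. Replicate 1 was lowest and replicate 2 highest in each of the 4 groups. It was the only member of 74 (1.35%) with 1 order in all groups, against 71 of the 12119 genes tested (0.586%). Whether replicate numbers pair the libraries is not known. The widely expressed isoform Cox7a2 had 103, 71.1 and 91.6 FPKM in miR-146a-/- HFD libraries and 81.9, 93.6 and 73.4 FPKM in WT HFD libraries, in another order.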
